A study of Mus musculus with 28 samples.

Results

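The receptors through which T cells receive IL-1, IL-18 and IL-33, together with the decoy receptor and the antagonist of IL-1, were followed in CD4+ T cells with and without *Tgfbr1*. The 7 genes were taken by name, whatever their values: *Il1r1*, *Il1r2*, *Il1rl1*, *Il1rap*, *Il1rn*, *Il18r1* and *Il18rap*, out of 24089 genes measured by RNA-seq. The study asked how TGF-β and IL-4 together turn naïve CD4+ T cells into IL-9-producing Th9 cells. All mice carried floxed *Tgfbr1* alleles and a tamoxifen-inducible Cre, *Ert2-cre*, on a C57BL/6 background. They were of both sexes and 8 to 10 weeks old. Those given oil served as WT, and those given tamoxifen lost *Tgfbr1* (KO), so tamoxifen itself and the loss of the gene cannot be told apart. Naïve CD4+ CD62L+ T cells were bead-purified from spleen and lymph nodes. All cultures received antibodies to CD3 and CD28, with medium alone (control), with IL-4, with TGF-β, or with both cytokines. Each of the 8 groups has 3 RNA-seq libraries, and DNase-seq covers control cultures and cultures with both cytokines of either genotype, by 1 library each. The length of culture before RNA was taken is not clearly stated in the sources used here.

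IL-1, IL-18 and IL-33 signal through related receptor pairs. *Il1r1* encodes the signalling receptor of IL-1, *Il18r1* that of IL-18 and *Il1rl1* (ST2) that of IL-33. *Il1rap* encodes the accessory chain shared by the IL-1 and IL-33 receptors and *Il18rap* the accessory chain of the IL-18 receptor, and the pairs signal through MyD88, IRAK kinases and TRAF6 to NF-κB. *Il1r2* encodes a decoy that binds IL-1 without signalling, and *Il1rn* the IL-1 receptor antagonist, which occupies the receptor without activating it.

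The headings of the RNA-seq columns conflict with read counts listed with the study for 8 of the WT libraries. The genes at 0 in each of these libraries were compared with the genes at 0 in each of the 24 columns, over 1991 to 3821 genes. Each of the 8 libraries matched a single column, in which at least 99.8% of genes had the same zero state, against at most 85.8% in the next best column. All 8 lay at the place given by the order of library numbers, 2 of them under their own heading and 6 under the heading of another library. The columns were therefore read by position in library-number order, and 4 of the 24 columns have a heading that gives the same library as their place. For the other 4 WT columns and all 12 KO columns no such read counts were used, so their identity rests on position alone. In KO columns read this way, *Gata3* lay between 58.8 and 71.4 RPKM with IL-4 and between 59.0 and 77.3 with both cytokines. It lay between 8.51 and 9.58 RPKM in KO control cultures and between 7.09 and 9.09 with TGF-β. These values part KO columns with IL-4 from those without it, but identify no single column. Read by position, the median SD of log2 values within groups was 0.10 in WT and 0.12 in KO, over 9726 genes with a mean of at least 1 RPKM, and as headed it was 0.16 and 0.13.

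Values are RPKM as the authors deposited them, which scale reads by the length of the gene and the size of the library. The total reads of each library are unknown. The steps between low values gave a relative depth of 0.826 to 1.66 (median 1.22) for the WT libraries and of 0.794 to 1.40 (median 1.13) for the KO libraries, where 1 is replicate 3 of the WT cultures with both cytokines. *Il1r2* rested on 14 to 135 reads per library (median 87.5) and *Il18rap* on 18 to 92 (median 59), where values came within 0.02 reads of a whole number in all 24 libraries. The reads behind the other 5 genes could not be recovered in this way.

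Differences were tested with limma on log2(RPKM + 0.1), a scale that understates the change of low genes, in 1 fit of all 24 libraries. Where a gene is lower in 1 genotype than in the other, this scale can overstate the difference between their responses. A gene was called at an adjusted p (Benjamini-Hochberg) under 0.01 and a fold change over 1.5, among 12508 genes with a mean of at least 0.1 RPKM. The study speaks of biological replicates in general, and whether the 3 libraries of a group came from separate animals or cultures is not stated for these data, so p-values measure the spread between these libraries, which may be technical.

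*Tgfbr1*, the targeted gene, was expressed in every library. In WT cells, *Tgfbr1* stood at 3.02, 3.25 and 3.31 RPKM in control cultures, 13.9, 14 and 14.5 with TGF-β, 3.69, 3.48 and 3.94 with IL-4 and 17.6, 19.5 and 20.7 with both cytokines. In KO cells, the values were 2.32, 2.55 and 3.05 in control cultures, 2.37, 2.42 and 3.24 with TGF-β, 2.92, 3.75 and 3.17 with IL-4 and 3.45, 5.18 and 3.35 with both. KO and WT control libraries overlapped, with a log2 difference of -0.27 ± 0.14 (SE), adjusted p = 0.216, while all KO libraries lay below all WT libraries with TGF-β and with TGF-β + IL-4. A deletion of floxed exons need not lower the RPKM of the whole gene, so the level in control cultures does not by itself check the label. The rise with TGF-β was called in WT (2.11 ± 0.14 (SE), adjusted p = 5.18e-10) and was smaller in KO by a called difference of -2.10 on the log2 scale (adjusted p = 3.49e-07). *Il9*, the cytokine that defines Th9 cells, stood at 9.93, 10.9 and 8.15 RPKM in WT control cultures, 45.9, 45.2 and 40.1 with TGF-β, 13, 14.6 and 17.4 with IL-4 and 36.1, 33.6 and 34.1 with both cytokines. Its KO values were 0.583, 0.275 and 0.250 in control cultures, 2.33, 2.30 and 0.936 with TGF-β, 0.836, 0.887 and 0.893 with IL-4 and 1.38, 2.72 and 1.46 with both. KO libraries lay below WT libraries in every culture, the WT libraries with TGF-β lay above those with both cytokines, and TGF-β still raised *Il9* in KO cells, by a log2 fold change of 2.03 ± 0.28 (SE), adjusted p = 0.00129. *Foxp3*, a gene of regulatory T cells, had WT means of 5.70 RPKM in control cultures, 64.3 with TGF-β, 1.92 with IL-4 and 33.7 with both. Its KO means were 1.43, 4.21, 0.611 and 1.66 RPKM in the same order. The part of such cells in the results was not tested.

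All 7 genes were weakly expressed. Of these, 6 had a mean of at least 0.1 RPKM over the 24 libraries and were tested, and 2, *Il1rap* and *Il1r2*, had a mean of at least 1. The means over all 24 libraries were 2.60 RPKM for *Il1rap*, 2.10 for *Il1r2*, 0.673 for *Il1rn*, 0.601 for *Il18r1*, 0.409 for *Il18rap*, 0.235 for *Il1rl1* and 0.0475 for *Il1r1*. They pool groups that differ, and the order differs between groups: *Il1r2* lay above *Il1rap* in the WT libraries with TGF-β and with both cytokines, and *Il1rn* lay below *Il18rap*, *Il18r1* and *Il1rl1* in the KO control libraries. Between 44.4% (*Il1r1*) and 66.4% (*Il1rap*) of all genes had a lower mean. These are bulk values, in which fewer cells that express a gene and less RNA per cell cannot be told apart.

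**Figure D1:**
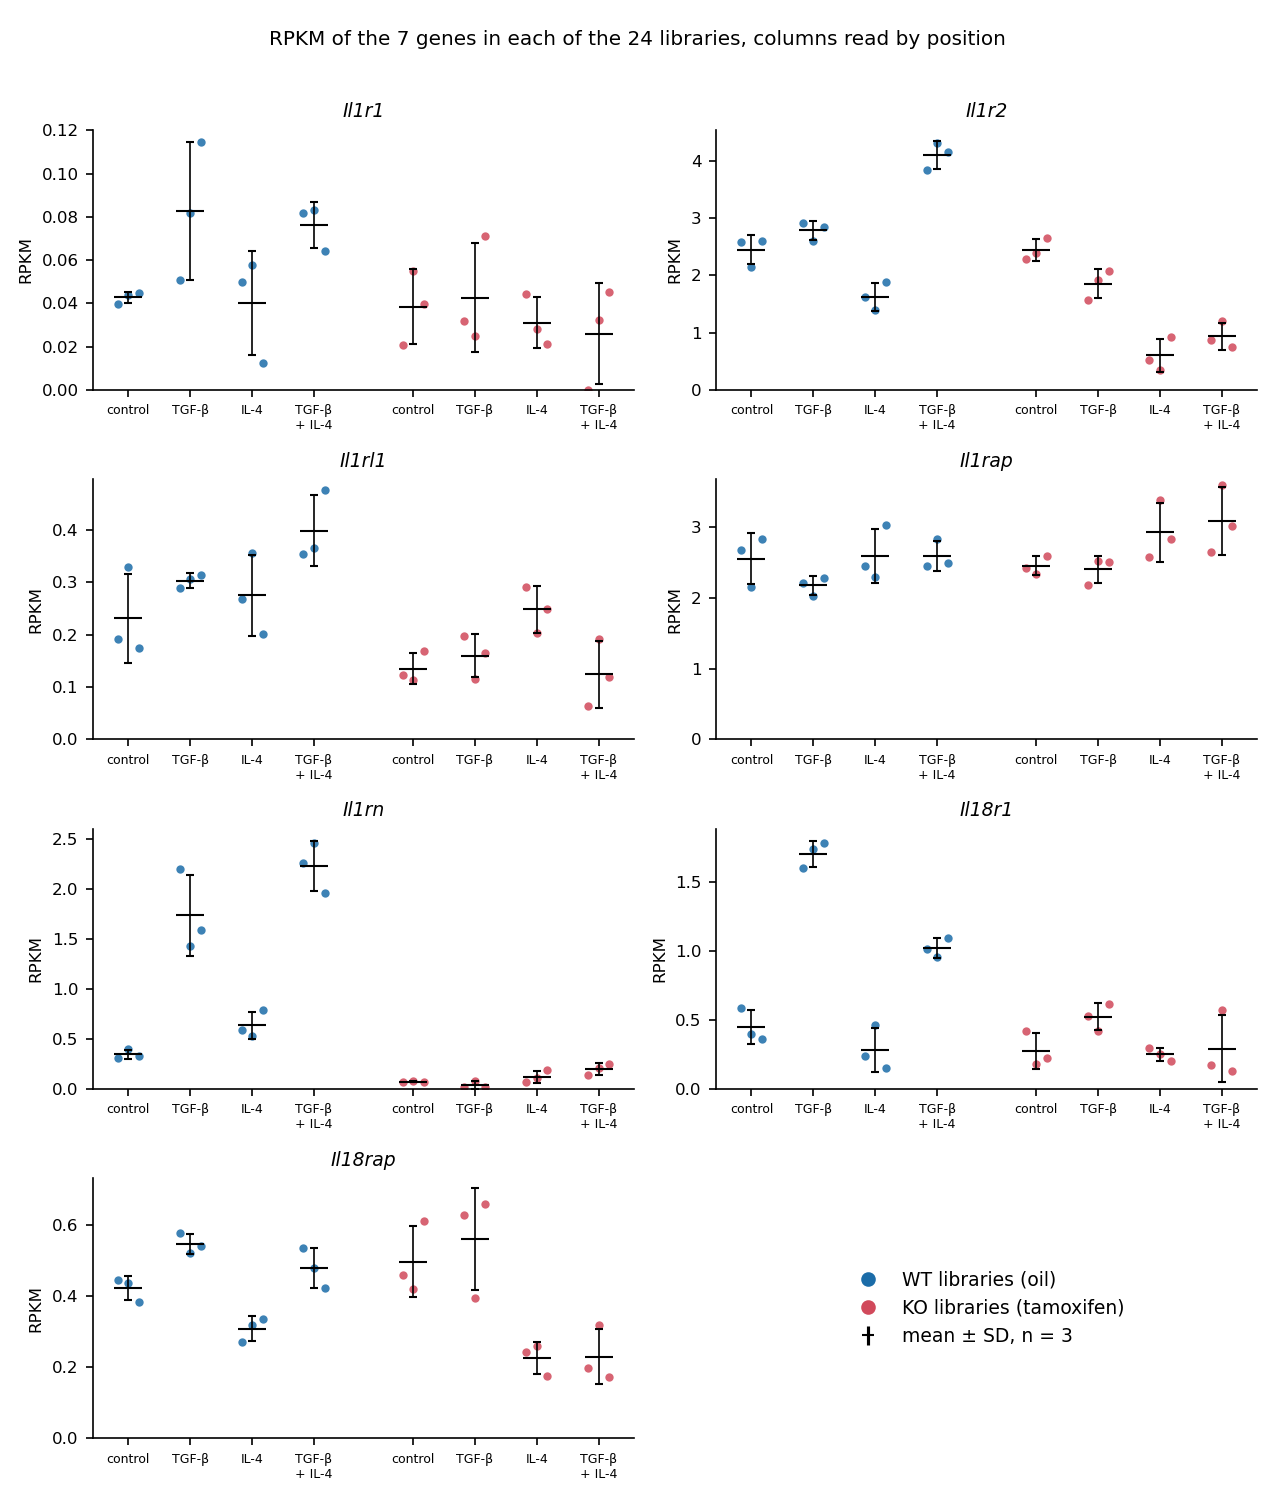
RPKM of the 7 genes (vertical axes, each from 0) in the 24 libraries by group, as points, with the mean ± SD of 3 libraries as bars, which stop at 0; WT in blue and KO in red. *Il1rn* lay between 1.43 and 2.47 RPKM in the 6 WT libraries with TGF-β and at 0.252 RPKM or less in the 12 KO libraries.

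The WT comparisons ask which receptor genes respond to each cytokine. TGF-β alone raised 2 of the 6 tested genes, *Il1rn* and *Il18r1*, where 6.60% of all tested genes were called. TGF-β + IL-4 raised *Il1rn* and *Il1r2*, 2 of 6, where 10.6% of all tested genes were called. IL-4 alone gave 0 calls of 6 in limma, with 2 genes at an unadjusted p under 0.05, where 1.40% of all tested genes were called. For the test of whether the effect of TGF-β + IL-4 departs from the sum of the separate effects, limma gave 0 calls of 6 and 1 gene at an unadjusted p under 0.05, with 1.01% of all tested genes called. The median log2 fold change of the 6 genes was 0.31 with TGF-β, -0.17 with IL-4 and 0.67 with TGF-β + IL-4, and that of all tested genes was 0.02, 0.01 and 0.05. These comparisons share the 3 WT control libraries.

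TGF-β in KO cells gave 0 calls of 6 in limma, with 1 gene at an unadjusted p under 0.05 and 0.0640% of all tested genes called. IL-4 lowered *Il1r2* and *Il18rap*, 2 of 6, where 3.32% of all tested genes were called. TGF-β + IL-4 lowered *Il1r2* and *Il18rap* as well, 2 of 6, where 3.45% were called. The median log2 fold change of the 6 genes was 0.05, 0.09 and -0.08 in the 3 comparisons, which share the KO control libraries, and that of all tested genes was -0.00, 0.01 and 0.02.

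The comparison of genotypes asks which of these levels and responses differ without TGF-β receptor I. In control cultures *Il1rn* alone of the 6 was called, lower in KO, where 3.40% of all tested genes were called. The response to TGF-β differed between genotypes for *Il1rn* alone, 1 of 6, where 4.30% were called. The response to TGF-β + IL-4 differed for *Il1rn* and *Il1r2*, 2 of 6, where 5.10% were called. For the response to IL-4, limma gave 0 calls of 6 and 1 gene at an unadjusted p under 0.05, with 0.0959% of all tested genes called. All KO libraries lay below all WT libraries for 2 of the 6 genes in control cultures (15.8% of all tested genes), for 4 with TGF-β (25.4%), for 3 with IL-4 (14.4%) and for 5 with TGF-β + IL-4 (22.2%). None of the 6 had all KO libraries above all WT libraries, where the share of all tested genes was 17.1% in control cultures, 22.6% with TGF-β, 16.6% with IL-4 and 23.4% with TGF-β + IL-4.

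**Figure D2:**
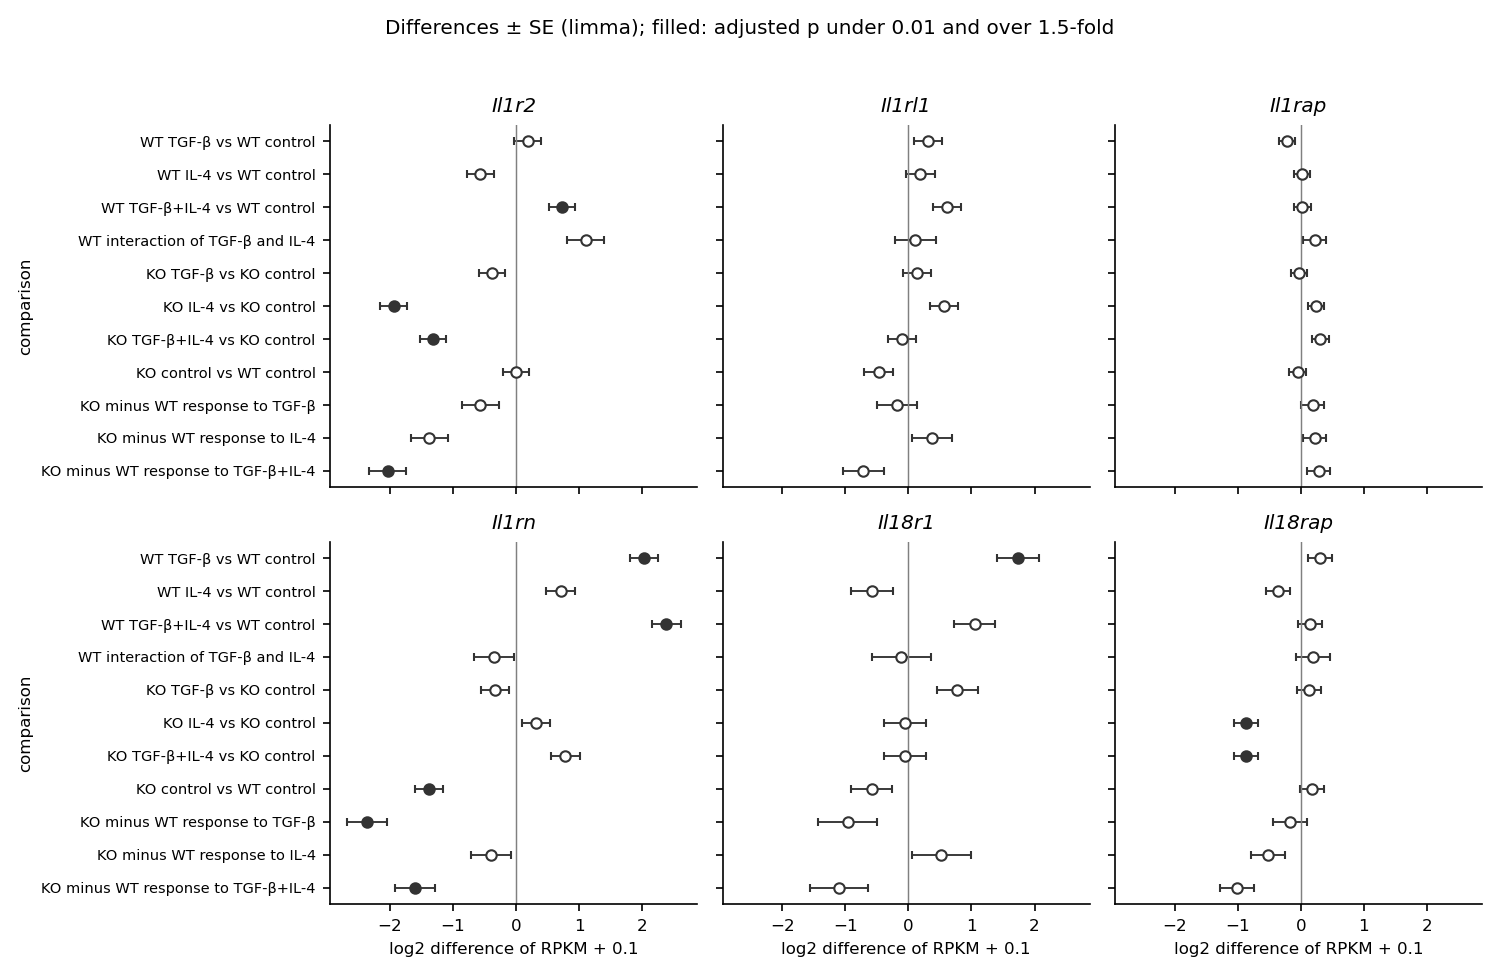
Log2 differences of RPKM + 0.1 (horizontal axes) for the 6 tested genes in 11 comparisons (vertical axes), with SE as bars and filled points for calls. The 12 filled points belong to *Il1rn*, *Il1r2*, *Il18rap* and *Il18r1*, and none to *Il1rl1* or *Il1rap*.

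None of the 12 calls is made with the columns as headed. With the headings taken as they stand, 0 of the 66 tests were called in limma, 4 had an unadjusted p under 0.05 and the lowest adjusted p was 0.0445. That lowest value belongs to *Il1rn* in KO against WT control cultures, where the log2 difference was larger as headed (-2.54) than by position (-1.38). The 2 readings exchange columns within a genotype only, and *Il1rn* was at 0.252 RPKM or less in all 12 KO columns and at 0.314 or more in all 12 WT columns. In the 8 WT libraries identified by their zeros, all 4 WT calls were also made. The plot of both readings shows the same 24 values of *Il1rn* and *Il18r1* sorted in each way.

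**Figure D3:**
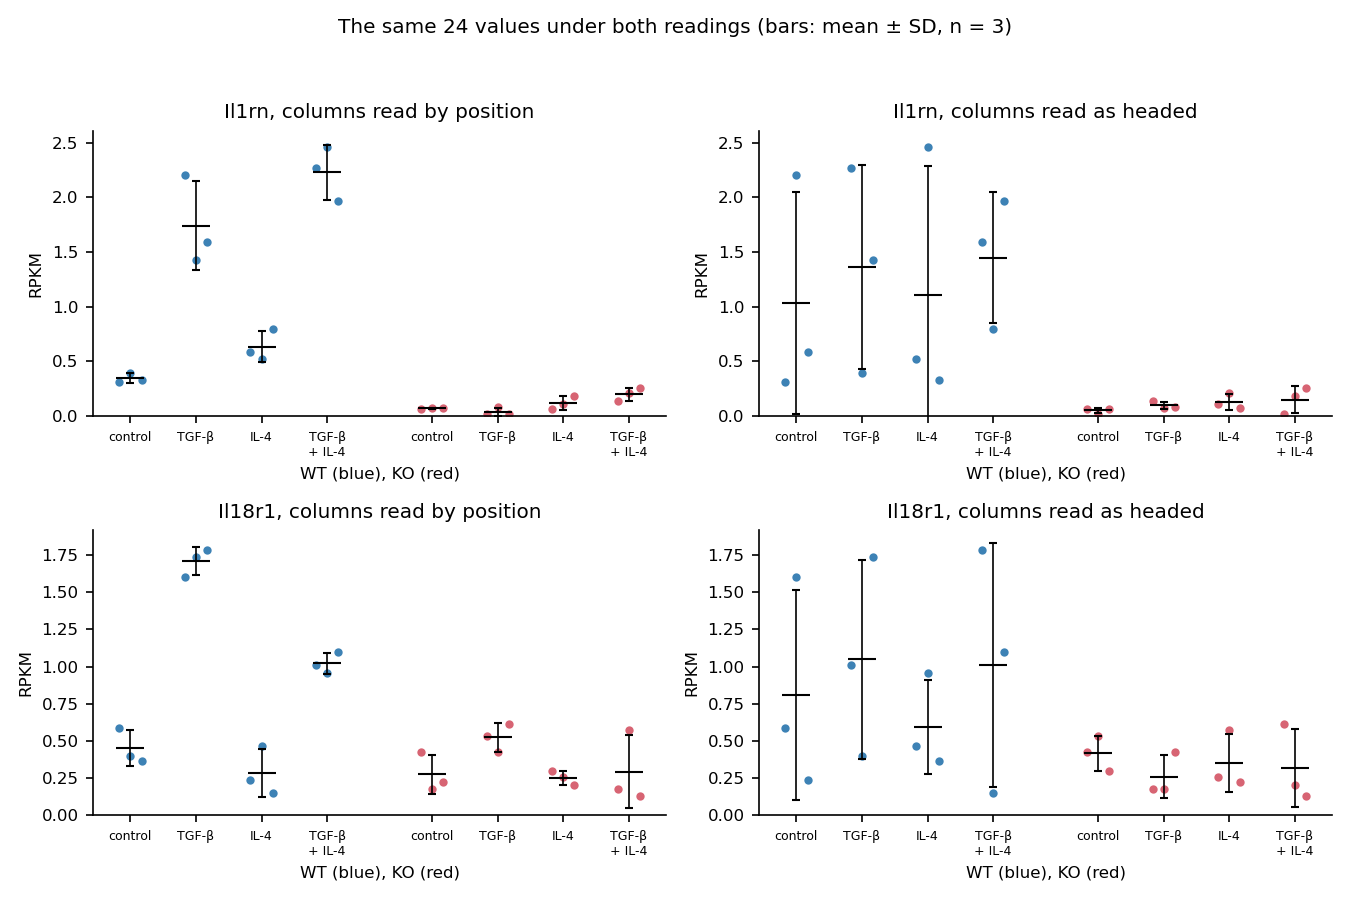
RPKM of *Il1rn* and *Il18r1* (vertical axes) in the 8 groups with columns read by position (left) and as headed (right), as points with the mean ± SD of 3 libraries, bars stopping at 0. Read by position, the WT TGF-β libraries of *Il18r1* lie between 1.60 and 1.78 RPKM and the WT control libraries between 0.361 and 0.589, whereas as headed each of these groups holds a value above 1.5 RPKM.

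*Il1r1*, the signalling receptor of IL-1, was at the edge of detection. WT control cultures held 0.0397, 0.0436 and 0.0448 RPKM of *Il1r1*, cultures with TGF-β 0.0508, 0.0819 and 0.115, with IL-4 0.0497, 0.0577 and 0.0126 and with both 0.0817, 0.0832 and 0.0640. The KO values were 0.0208, 0.0551 and 0.0395 RPKM in control, 0.0319, 0.0247 and 0.0713 with TGF-β, 0.0441, 0.0281 and 0.0212 with IL-4 and 0, 0.0324 and 0.0454 with both cytokines. It was at 0 in 1 library, its mean of 0.0475 RPKM lay below the filter, and it was not tested. The WT libraries with TGF-β and with TGF-β + IL-4 lay above the WT control libraries, and those with TGF-β + IL-4 also above the KO libraries of the same culture.

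*Il1rap*, the accessory chain, varied least of the 6 tested genes in fold terms. *Il1rap* was at 2.67, 2.15 and 2.84 RPKM in WT control libraries, at 2.21, 2.03 and 2.28 with TGF-β, at 2.45, 2.30 and 3.03 with IL-4 and at 2.45, 2.83 and 2.49 with both cytokines. KO libraries gave 2.43, 2.33 and 2.60 RPKM in control cultures, 2.19, 2.52 and 2.50 with TGF-β, 2.57, 3.39 and 2.83 with IL-4 and 2.65, 3.60 and 3.01 with both. WT and KO libraries overlapped in all 4 cultures, and of the 6 cytokine groups the KO libraries with TGF-β + IL-4 alone lay wholly above their control, with a log2 fold change of 0.31 ± 0.13 (SE), adjusted p = 0.158. No comparison called *Il1rap*. A minus-strand gene, RP24-345H5.2, covers 552 of its 11360 exonic bases (4.86%), and reads of the 2 genes cannot be told apart because the library method kept no strand.

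*Il18r1*, which binds IL-18, was highest with TGF-β in WT cells. In WT cells, *Il18r1* stood at 0.589, 0.400 and 0.361 RPKM in control cultures, 1.60, 1.74 and 1.78 with TGF-β, 0.239, 0.462 and 0.150 with IL-4 and 1.01, 0.955 and 1.10 with both cytokines. In KO cells, the values were 0.423, 0.177 and 0.225 in control cultures, 0.531, 0.424 and 0.616 with TGF-β, 0.294, 0.254 and 0.202 with IL-4 and 0.174, 0.575 and 0.129 with both. The WT libraries with TGF-β and with TGF-β + IL-4 lay above the WT control libraries and above all KO libraries of the same culture, and those with IL-4 overlapped their control. The rise with TGF-β was called (1.74 ± 0.33 (SE), adjusted p = 5.50e-04), and that with TGF-β + IL-4 missed the threshold (1.05 ± 0.33 (SE), adjusted p = 0.0168) and was called in 3 of 16 alternatives. In KO cells the TGF-β libraries lay just above the control libraries, with a log2 fold change of 0.78 ± 0.33 (SE), adjusted p = 1.00. The difference between genotypes in the response to TGF-β was -0.96 ± 0.46 (SE), adjusted p = 0.259, not called, and on log2(RPKM + 1) it was called (adjusted p = 0.00679, in a range of 0.00679 to 0.933 over 15 alternatives). For TGF-β + IL-4 the difference was -1.10 ± 0.46 (SE), adjusted p = 0.120, not called. It was called in 1 alternative, without KO replicate 2, with adjusted p between 0.00501 and 0.999 over 15 alternatives. The WT TGF-β call was lost without WT replicate 2 (adjusted p = 0.0120) and without WT replicate 3 (0.0179), in a range of 1.65e-06 to 0.951 over 16 alternatives, the highest with the columns as headed.

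*Il18r1* starts 136 bp after the end of *Il1rl1*, and its 3 RefSeq promoters overlapped a DNase hypersensitive site (DHS), a stretch of open chromatin, in all 4 DNase-seq libraries. The first promoter is shown because this gene rose with TGF-β and this promoter overlapped a DHS in each library (300 bases, plus strand, from 250 before the start to 50 after it, found once in mm9 at chr1:40522147-40522446). Capitals mark TTCNNNNGAA, the spaced palindrome bound by STAT factors, searched on both strands together with CAGAC, a Smad-binding sequence that occurs in none of the 3. The match lies outside this DHS, just before its first base (chr1:40522292-40522688 with the 4 lists joined). Promoter 2 overlaps the first and holds the same match, and promoter 3 holds none.
Il18r1 promoter: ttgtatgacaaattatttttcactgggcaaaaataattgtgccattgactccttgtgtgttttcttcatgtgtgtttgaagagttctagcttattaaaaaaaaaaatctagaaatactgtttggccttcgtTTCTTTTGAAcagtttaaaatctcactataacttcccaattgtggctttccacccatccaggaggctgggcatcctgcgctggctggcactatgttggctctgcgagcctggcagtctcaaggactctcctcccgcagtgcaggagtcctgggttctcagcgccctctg
TTCNNNNGAA occurs in 6.98% and CAGAC in 49.5% of 32544 RefSeq promoters of the same length, so a match describes the sequence only.

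*Il18rap*, the accessory chain of the IL-18 receptor, fell with IL-4 in KO cells. WT control cultures held 0.447, 0.437 and 0.385 RPKM of *Il18rap*, cultures with TGF-β 0.579, 0.523 and 0.542, with IL-4 0.270, 0.320 and 0.337 and with both 0.536, 0.481 and 0.422. The KO values were 0.461, 0.421 and 0.611 RPKM in control, 0.630, 0.396 and 0.659 with TGF-β, 0.245, 0.259 and 0.176 with IL-4 and 0.199, 0.319 and 0.172 with both cytokines. The KO libraries with IL-4 and with TGF-β + IL-4 lay below the KO control libraries and below the WT libraries of the same culture, and WT and KO control libraries overlapped. The WT libraries with IL-4 also lay below the WT control libraries, and those with TGF-β above them. The fall in KO cells was called with IL-4 (-0.87 ± 0.19 (SE), adjusted p = 0.00433) and with TGF-β + IL-4 (-0.87 ± 0.19 (SE), adjusted p = 0.00395). In WT cells the log2 fold change with IL-4 was -0.36 ± 0.19 (SE), adjusted p = 0.417. The genotype difference was -0.51 ± 0.27 (SE), adjusted p = 0.744 for the response to IL-4 and -1.02 ± 0.27 (SE), adjusted p = 0.0127 for TGF-β + IL-4. Neither was called, and the latter was called in 3 of 15 alternatives, with no trend in the fit, at an adjusted p under 0.05 and without KO replicate 2, with adjusted p between 0.00105 and 0.999 over all. Each KO call was lost in 9 of 15 alternatives, among them each WT replicate and KO replicates 1 and 3 left out, with adjusted p between 0.00108 and 0.939 for IL-4 and between 3.85e-04 and 0.993 for both cytokines.

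*Il1rl1* (ST2), the receptor of IL-33, was low in every library. *Il1rl1* was at 0.191, 0.329 and 0.175 RPKM in WT control libraries, at 0.289, 0.307 and 0.315 with TGF-β, at 0.268, 0.357 and 0.202 with IL-4 and at 0.354, 0.367 and 0.477 with both cytokines. KO libraries gave 0.124, 0.114 and 0.168 RPKM in control cultures, 0.197, 0.116 and 0.166 with TGF-β, 0.292, 0.203 and 0.250 with IL-4 and 0.0633, 0.191 and 0.119 with both. The WT libraries with TGF-β + IL-4 lay above the WT control libraries, and the KO libraries lay below the WT libraries in 3 of the 4 cultures but not with IL-4. The KO libraries with IL-4 lay above the KO control libraries, with a log2 fold change of 0.57 ± 0.23 (SE), adjusted p = 0.133. No comparison called it, and the nearest was TGF-β + IL-4 in WT cells (0.61 ± 0.23 (SE), adjusted p = 0.0406).

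*Il1r2*, the decoy receptor, moved in opposite directions with TGF-β + IL-4 in the 2 genotypes. In WT cells, *Il1r2* stood at 2.58, 2.15 and 2.61 RPKM in control cultures, 2.91, 2.59 and 2.85 with TGF-β, 1.62, 1.39 and 1.88 with IL-4 and 3.84, 4.32 and 4.15 with both cytokines. In KO cells, the values were 2.28, 2.39 and 2.66 in control cultures, 1.58, 1.92 and 2.08 with TGF-β, 0.519, 0.354 and 0.927 with IL-4 and 0.875, 1.20 and 0.743 with both. Control libraries of WT and KO overlapped. With TGF-β + IL-4 the WT libraries lay above and the KO libraries below their controls, and with IL-4 both genotypes lay below theirs. With TGF-β the KO libraries lay below their control and the WT libraries overlapped theirs. Its fall in KO cells was called with IL-4 (-1.94 ± 0.21 (SE), adjusted p = 9.59e-07) and with TGF-β + IL-4 (-1.31 ± 0.21 (SE), adjusted p = 1.51e-04). In WT cells the rise with TGF-β + IL-4 was called just inside the threshold (0.73 ± 0.21 (SE), adjusted p = 0.00980), and IL-4 alone gave -0.56 ± 0.21 (SE), adjusted p = 0.164. The genotypes differed in the response to TGF-β + IL-4 by -2.04 ± 0.29 (SE), adjusted p = 5.33e-05, and for IL-4 alone the difference was -1.38 ± 0.29 (SE), adjusted p = 0.0576. The departure from additivity in WT cells was 1.11 ± 0.29 (SE), adjusted p = 0.0360 and not called. The WT call was lost in 11 of 17 alternatives, with adjusted p between 4.00e-04 and 0.999, among them each WT replicate and KO replicate 1 left out. An antisense gene, *Gm16894*, overlaps *Il1r2* but shares 0 of its 1337 exonic bases.

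An intron of *Il1r2* holds a DHS that was listed in all 4 libraries, with its summit 31842 bp after the start of the gene in the list where it was strongest. It ranked in the top 23.2% of DHSs in WT control, 62.8% in KO control, 50.7% in WT and 33.9% in KO cells with both cytokines. The 151 bases around its summit in the WT TGF-β + IL-4 list, 31823 bp after the start (mm9, plus strand, chr1:40173361-40173511), are shown because they hold 3 matches to CAGAC or its reverse complement GTCTG, in capitals, and no match to TTCNNNNGAA.
Il1r2 intronic DHS: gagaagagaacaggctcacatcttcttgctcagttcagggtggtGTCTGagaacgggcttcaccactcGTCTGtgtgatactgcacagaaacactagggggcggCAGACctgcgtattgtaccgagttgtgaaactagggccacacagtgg
Over the 18 windows at the 7 genes in WT cells with both cytokines, CAGAC occurred in 4 (22.2%) and TTCNNNNGAA in 0, against 33.6% and 4.56% of 32989 windows genome-wide.

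*Il1rn*, the IL-1 receptor antagonist, had the largest fold changes of the 6 tested genes in WT cells. WT control cultures held 0.314, 0.398 and 0.329 RPKM of *Il1rn*, cultures with TGF-β 2.20, 1.43 and 1.59, with IL-4 0.589, 0.526 and 0.792 and with both 2.27, 2.47 and 1.97. The KO values were 0.0670, 0.0757 and 0.0719 RPKM in control, 0.0206, 0.0799 and 0.0154 with TGF-β, 0.0641, 0.109 and 0.185 with IL-4 and 0.135, 0.211 and 0.252 with both cytokines. All WT libraries with a cytokine lay above the WT control libraries, the KO libraries with TGF-β + IL-4 lay above the KO control libraries, and in every culture all KO libraries lay below all WT libraries. In WT cells the log2 fold change was 2.03 ± 0.23 (SE), adjusted p = 7.42e-07 with TGF-β and 2.38 ± 0.23 (SE), adjusted p = 6.92e-08 with TGF-β + IL-4, both called, and 0.71 ± 0.23 (SE), adjusted p = 0.0899 with IL-4. In KO cells TGF-β gave -0.34 ± 0.23 (SE), adjusted p = 1.00 and TGF-β + IL-4 gave 0.78 ± 0.23 (SE), adjusted p = 0.0290, neither called. The control cultures differed between genotypes by -1.38 ± 0.23 (SE), adjusted p = 2.61e-04. The KO values lay near the 0.1 RPKM added before log2. Without it, mean RPKM relative to control was 5.02 in WT and 0.540 in KO with TGF-β, and 6.44 and 2.79 with both cytokines. The difference between genotypes in the response was -2.36 ± 0.32 (SE), adjusted p = 2.45e-05 for TGF-β and -1.60 ± 0.32 (SE), adjusted p = 0.00141 for TGF-β + IL-4. The last of these was lost without each WT replicate (adjusted p of 0.0106 to 0.0159, in a range of 1.21e-06 to 0.999 over 15 alternatives), and the difference of the control cultures on log2(RPKM + 1), with adjusted p between 2.02e-04 and 0.0445 over 15 alternatives.

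None of the 3 RefSeq promoters of *Il1rn* overlapped a DHS in any of the 4 libraries. The first is shown, as the start of the gene with the largest response (300 bases, plus strand, found once in mm9 at chr2:24192130-24192429). Capitals mark GTCTG, the reverse complement of CAGAC, and TTCNNNNGAA does not occur. The other 2 promoters, about 8 kb further on and overlapping each other, each hold 1 match to CAGAC and 1 to TTCNNNNGAA.
Il1rn promoter: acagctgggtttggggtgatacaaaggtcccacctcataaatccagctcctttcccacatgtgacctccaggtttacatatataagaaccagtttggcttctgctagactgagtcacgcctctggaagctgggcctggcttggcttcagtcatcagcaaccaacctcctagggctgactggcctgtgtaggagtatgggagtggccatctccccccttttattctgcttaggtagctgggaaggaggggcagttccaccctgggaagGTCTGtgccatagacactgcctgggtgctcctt
The sole DHS within 10 kb of the gene lay 22712 bp after its start, past its end, and was listed in WT control cells and in none of the other 3 libraries.

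Myeloid cells also express *Il1rn*, and neutrophil markers were on average most abundant in the WT groups with TGF-β. The cultures began with bead-purified CD4+ CD62L+ T cells, and the methods say that cells were sorted into the lysis reagent, without markers named there. Of the neutrophil list, 8 of 8 genes had a mean of at least 0.1 RPKM and 7 of at least 1, the most abundant was *Cxcr2* (mean 24.7 RPKM), and none was at 0 in all 24 libraries. The summed RPKM of the list was 39.4, 51.8 and 60.1 in WT control libraries, 119, 77.0 and 101 with TGF-β, 73.9, 86.8 and 58.4 with IL-4 and 155, 127 and 111 with TGF-β + IL-4. For KO cells the sum was 33.2, 30.1 and 39.0 in control cultures, 30.2, 31.5 and 24.6 with TGF-β, 23.3, 36.6 and 20.8 with IL-4 and 37.3, 37.6 and 24.2 with TGF-β + IL-4. The sums in WT libraries with TGF-β or TGF-β + IL-4 lay above all WT control and all KO sums, and the part of these cells in the *Il1rn* result was not tested. *S100a8*, a neutrophil gene, stood at 3.20, 11.4 and 9.89 RPKM in WT control libraries, 52.2, 32.0 and 44.5 with TGF-β, 19.1, 28.6 and 12.5 with IL-4 and 79.3, 64.9 and 56.4 with both cytokines, and in KO libraries at 0.160, 0.526 and 11.3, 3.44, 2.76 and 3.38, 0, 9.54 and 0 and 5.14, 12.5 and 0 in the same order. KO and WT control libraries overlapped. Of the 8 neutrophil genes limma called 0 with TGF-β in WT cells, with 2 at an unadjusted p under 0.05, where 6.60% of all tested genes were called. With both cytokines it called *Elane* higher and the most abundant gene, *Cxcr2*, lower (10.6%). The median log2 fold change of the 8 genes was 2.02 with TGF-β and 2.63 with both cytokines in WT cells, where that of *Il1rn* was 2.03 and 2.38. The median difference between genotypes was -0.91 for the response to TGF-β and -2.13 for that to both, where that of *Il1rn* was -2.36 and -1.60.

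**Figure D4:**
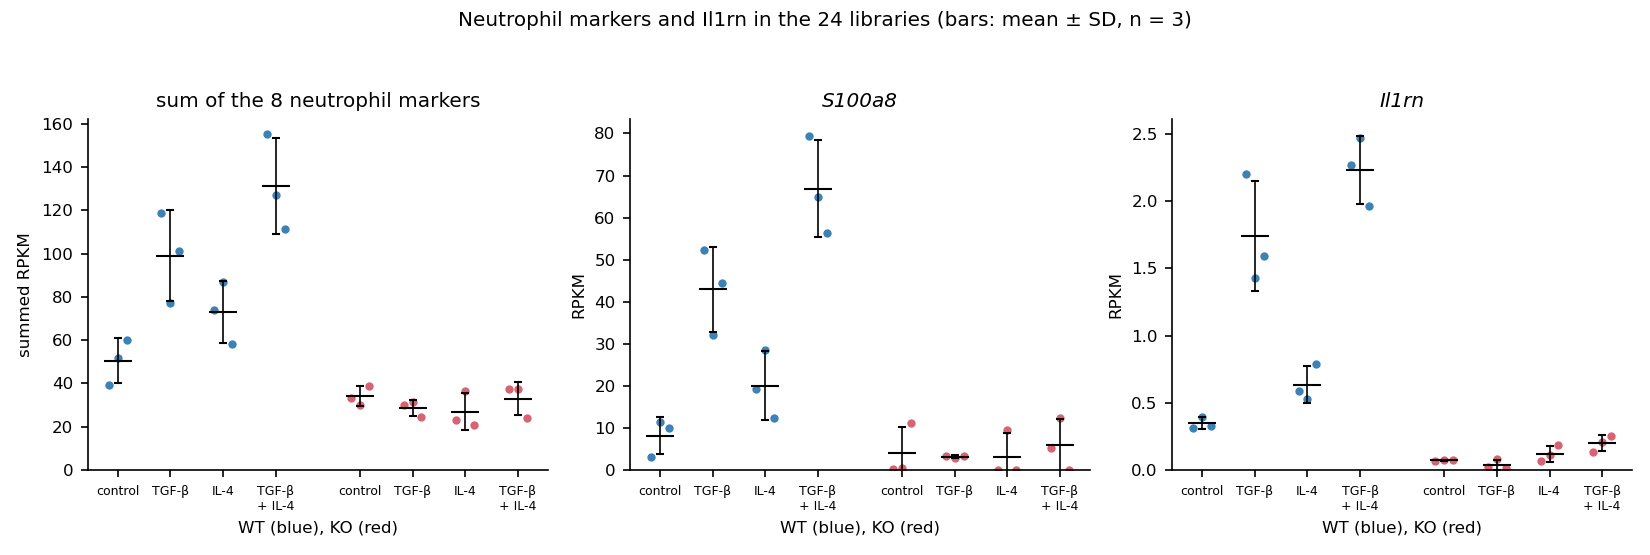
Summed RPKM of the 8 neutrophil markers, RPKM of *S100a8* and RPKM of *Il1rn* (vertical axes) in the 24 libraries by group, as points with the mean ± SD of 3 libraries, bars stopping at 0. The marker sum is 77.0 or more in the 6 WT libraries with TGF-β and 39.0 or less in the 12 KO libraries. The WT libraries with IL-4 alone, at 73.9, 86.8 and 58.4, overlap the former.

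CD4 T cell markers dominated every library, with 7 of 7 genes at a mean of at least 1 RPKM, *Lck* the most abundant (mean 345 RPKM) and sums of 1111 to 1571. The macrophage and monocyte list had 4 of 9 genes at a mean of at least 0.1 RPKM, led by *Lyz2* (4.92), with sums of 4.99, 6.66 and 3.91 in WT control libraries, 19.1, 6.45 and 12.6 with TGF-β, 4.71, 3.12 and 3.11 with IL-4 and 17.3, 10.7 and 7.47 with both cytokines. The KO sums were 0.952, 0.597 and 1.93 in control cultures, 1.26, 4.04 and 10.6 with TGF-β, 4.28, 1.21 and 3.78 with IL-4 and 4.81, 4.75 and 2.51 with both, below WT without overlap in control cultures and with both cytokines only. The alternatively activated macrophage list had 1 of 4, *Chil3* (2.48), with sums of 0.176, 0.876 and 0.409 in WT control libraries, 3.63, 0.986 and 1.40 with TGF-β, 4.16, 3.79 and 1.13 with IL-4 and 16.4, 15 and 9.02 with both cytokines. Its KO sums were 0.0474, 0.0598 and 0.628 in control cultures, 0.0326, 0.0484 and 0.0243 with TGF-β, 0.0337, 0.631 and 0.502 with IL-4 and 0.414, 1.49 and 0.0117 with both, so the WT libraries with both cytokines lay above all others. For the NK cell list (4 of 4 genes, led by *Eomes*) the sums were 7.02, 5.75 and 7.96 in WT control libraries, 1.25, 1.28 and 1.32 with TGF-β, 6.84, 9.07 and 5.57 with IL-4 and 2.97, 3.22 and 3.65 with both, and in KO libraries 5.32, 6.21 and 5.83, 5.13, 5.37 and 5.90, 6.66, 7.69 and 7.18 and 6.95, 8 and 6.43 in the same order. For the CD8 T cell list (2 of 2, *Cd8b1*) they were 26.3, 24.8 and 26.9 in WT control libraries, 17.3, 16.6 and 16.6 with TGF-β, 36.3, 35.2 and 29.9 with IL-4 and 25.3, 26.7 and 26.6 with both, and in KO libraries 16.7, 14.8 and 15, 15, 14.3 and 15.2, 26.3, 27.2 and 26.3 and 26.3, 28.3 and 27.1. NK and CD8 T cell sums with TGF-β in WT cells thus lay below those of WT control libraries without overlap. Sums ranged from 5.86 to 15.5 for mast cells and basophils (6 of 7, *Mcpt8*) and from 1.11 to 2.99 for dendritic cells (4 of 5, *Zbtb46*), and for stromal cells (0 of 3) the highest sum was 0.148. No gene of these lists was at 0 in all 24 libraries, and the part of any of these cells in the results was not tested.

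Over all lists 41 markers were tested. With TGF-β in WT cells 7 were called lower, *Eomes*, *Klra8*, *Klrb1c*, *Ncr1*, *Zbtb46*, *Cd8b1* and *Cd28*, and 0 higher, where 6.60% of all tested genes were called (this share is in brackets for the other comparisons). IL-4 in WT cells gave 1 higher, *Ncr1*, and 2 lower, *Eomes* and *Cd28* (1.40%). TGF-β + IL-4 in WT cells gave 6 higher, *Chil3*, *Elane*, *Itgam*, *Itgax*, *Flt3* and *Cd79b*, and 3 lower, *Eomes*, *Cxcr2* and *Cd28* (10.6%). The departure from additivity was called for *Eomes* and *Cd28*, higher, and *Cd2*, lower (1.01%). For TGF-β in KO cells limma called 0 markers, with 3 at an unadjusted p under 0.05 (0.0640%). IL-4 in KO cells gave 5 higher, *Itgax*, *Ncr1*, *Zbtb46*, *Cd79b* and *Cd8b1*, and 1 lower, *Cd28* (3.32%), and TGF-β + IL-4 gave 3 higher, *Cd79b*, *Ncr1* and *Cd8b1*, and 1 lower, *Cd28* (3.45%). In control cultures *Lyz2*, *Cd8a*, *Emr1* and *Cd2* were lower in KO than in WT, and no marker was higher (3.40%). The response to TGF-β was higher in KO for 5, *Eomes*, *Klrb1c*, *Ncr1*, *Cd8b1* and *Cd28*, and lower for 0 (4.30%). That to TGF-β + IL-4 was higher in KO for 6, *Eomes*, *Ncr1*, *Klrb1c*, *Zbtb46*, *Cd8b1* and *Cd2*, and lower for 1, *Itgam* (5.10%). For the response to IL-4, limma called 0 markers, with 7 at an unadjusted p under 0.05 (0.0959%).

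Of the other genes of the pathway, 24 of 34 passed the filter: 4 of 10 ligands and antagonists, 2 of 4 other receptors and 18 of 20 signalling genes. *Il33* was listed at 0 in 23 of 24 libraries, and 4 other ligand genes and 2 receptor genes were at 0 in all 24. With TGF-β in WT cells 2 rose and 1 fell of 24, where 6.60% of all tested genes were called. *Il1a*, which encodes IL-1α, went from 1.35, 1.43 and 1.72 RPKM in control to 3.19, 3.25 and 4.65, *Traf6*, an adaptor of the pathway, from 13.7, 14.3 and 14.7 to 29.9, 27.9 and 27.4, and *Sigirr*, an inhibitory receptor of the family, from 41.2, 39.6 and 43.3 to 26.1, 23.3 and 24.3. Their log2 fold changes were 1.24, 0.99 and -0.75. With TGF-β + IL-4 in WT cells 2 rose, *Traf6* (1.04) and *Peli1* (0.62), and 2 fell, the kinase genes *Irak2* (-0.99) and *Irak1* (-0.79), where 10.6% of all tested genes were called. None rose in KO cells, and 2 fell with IL-4, *Nfkbiz* (-1.02) and *Irak2* (-0.63), and 1 with TGF-β + IL-4, *Il1rl2* (-1.14), where 3.32% and 3.45% of all tested genes were called. The response to TGF-β was higher in KO than in WT for *Sigirr* (0.79) and lower for *Traf6* (-0.99), and that to TGF-β + IL-4 was lower for *Traf6* (-0.89), where 4.30% and 5.10% of all tested genes were called. In the other 5 comparisons limma called 0 of the 24, where the share of all tested genes was 1.40% for IL-4 in WT, 1.01% for additivity, 0.0640% for TGF-β in KO, 3.40% for genotype in control cultures and 0.0959% for the difference in the response to IL-4.

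The 7 genes are on the plus strand of mm9. *Il1r2*, *Il1r1*, *Il1rl1*, *Il18r1* and *Il18rap* lie in this order within 466938 bp of chromosome 1 (40141613 to 40608550), *Il1rn* is on chromosome 2 (24192373 to 24207014) and *Il1rap* on chromosome 16 (26581790 to 26730203). Across the 24 libraries, Pearson's r of log2 values ranged from 0.24 (*Il1rl1* with *Il18rap*) to 0.75 (*Il1r2* with *Il18rap*) over the 6 pairs of the 4 tested genes on chromosome 1. Over the 9 pairs on different chromosomes it ranged from -0.53 (*Il1rap* with *Il18rap*) to 0.71 (*Il1rl1* with *Il1rn*), so the ranges overlapped. As a description over libraries that share groups, the genes most like *Il1rn* were *Smim3* (r = 0.967), *Ctsw* (0.966) and *Nek6* (0.965), and those most like *Il18r1* were *Emp1* (0.919), *Mtss1* (0.913) and *Irf2bpl* (0.912). For *Il1r2* they were *Slc29a3*, *Gm13546* and *Pld3* (each 0.902), and for *Il18rap* *Slc9b2* (0.892), *Bdh2* (0.867) and *Mapkbp1* (0.863). For *Il1rl1* they were *Rnf41* (0.869), *Fam110a* (0.839) and *Gm4841* (0.838), and for *Il1rap* *Fli1* (0.819), *Pcmt1* (0.819) and *3110002H16Rik* (0.793).

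DHSs were counted within each gene and 10 kb on each side, in lists of 44298 (WT control), 33665 (KO control), 33880 (WT TGF-β + IL-4) and 27145 (KO TGF-β + IL-4) DHSs, each from 1 library with no replicate and of unknown depth. The 7 loci held 21, 13, 18 and 11 DHSs in these lists, at 25 sites, of which 10 were in all 4 lists, 1 in 3, 6 in 2 and 8 in 1. Sites listed once belonged to WT control (4), WT TGF-β + IL-4 (3) and KO control (1). With TGF-β + IL-4, 7 of 18 WT DHSs at the loci had no overlapping KO DHS, where the share was 30.6% of all WT TGF-β + IL-4 DHSs. In control cultures 9 of 21 WT DHSs had no overlapping KO DHS, where the share was 30.8% genome-wide. Of the 21 WT control DHSs, 6 had none in WT TGF-β + IL-4 (31.9% genome-wide), and of the 18 WT TGF-β + IL-4 DHSs, 3 had none in WT control (10.8% genome-wide). The lists differ in length, and lists of equal length leave 11 DHSs for WT TGF-β + IL-4.

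At *Il18r1*, 5, 4 and 3 DHSs were listed in WT TGF-β + IL-4, WT control and either KO library. Distances are to the summit in the list where a site was strongest. Those with summits 65 bp, 4473 bp and 14067 bp after its start were in all 4 lists, that at 10319 bp in the WT lists alone and that at 11452 bp in WT TGF-β + IL-4 alone. At *Il1r2*, the DHSs at 1160 bp and 31842 bp were in all 4 lists, that at 30714 bp in the WT lists alone and that at 24757 bp in the control lists alone. At *Il1rl1*, a DHS 7696 bp into the gene was listed in WT TGF-β + IL-4 alone. The 3 sites listed in WT TGF-β + IL-4 alone, at *Il18r1*, *Il1rl1* and *Il1r1*, ranked in the top 97.1%, 90.9% and 84.4% of that list, and all 3 are lost when each list is held to its 27145 strongest DHSs. At *Il18rap*, the DHSs at its start and at 29477 bp were in all 4 lists and that at 1199 bp in the control lists alone. *Il1r1* had 5 DHSs in either WT list, and in KO cells 1 in control cultures and 2 with both cytokines. Both WT counts include a site past the end of *Il1r1*, in an exon of *Il1rl2*, that neither KO list holds. *Il1rap* had a DHS at its start in all 4 lists.

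**Figure D5:**
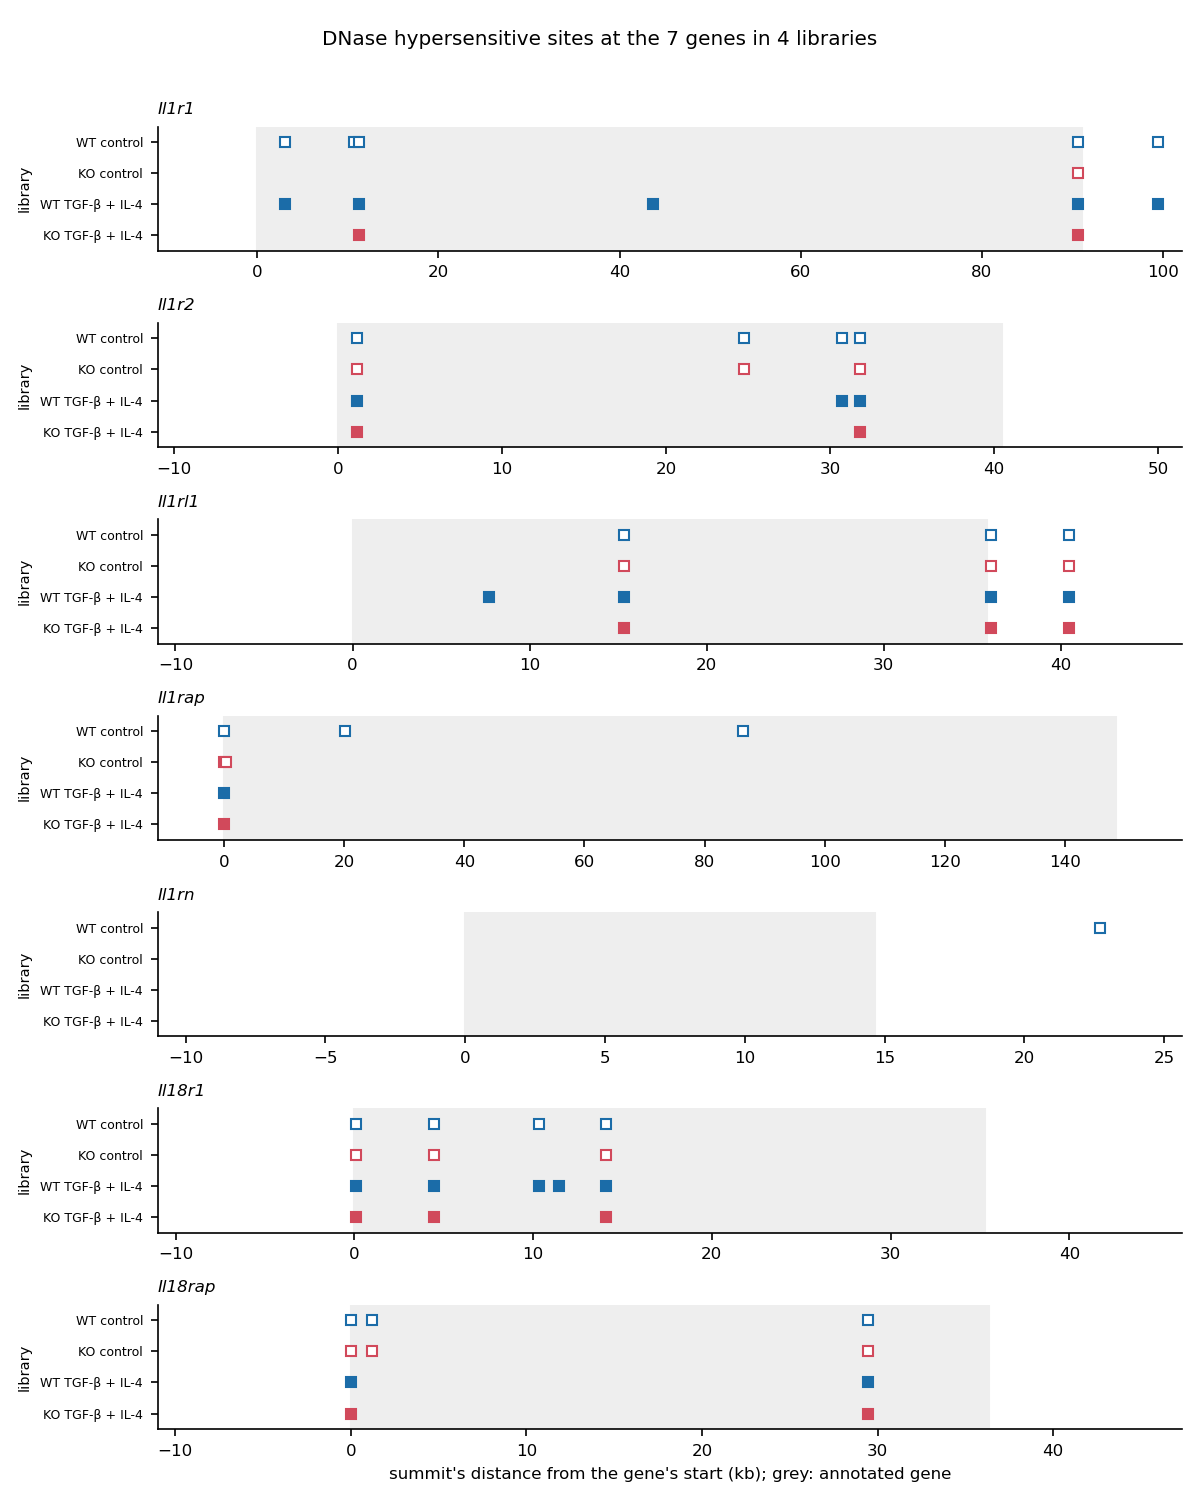
DHSs within 10 kb of the 7 genes (horizontal axes: distance from the gene's start in kb; grey: the annotated gene) in the 4 DNase-seq libraries, 1 per group (vertical axes). Each site is drawn, in every library that lists it, at its summit in the list where it was strongest. Open squares are control cultures and filled squares TGF-β + IL-4, WT in blue and KO in red, and *Il1rn* has a single DHS.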

How the data were processed

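RNA-seq (Smart-seq2, polyA, 24 libraries) and DNase-seq (4 libraries) were mapped to mm9 with Bowtie2 by the authors, who removed reads with a mapping quality of 10 or less and redundant reads. The RPKM values were computed with edgeR by the authors. The authors called DNase-seq peaks per library with MACS2 and deposited for each its fold enrichment and its -log10 p and -log10 q values. These p-values are the authors' and rank DHSs within a list only.

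RPKM columns were read in library-number order. Tests used limma 3.58.1 in R 4.3.3 with log2(RPKM + 0.1) of 12508 genes with a mean of at least 0.1 RPKM, in 1 fit of 8 groups of 3 (moderated variances that follow mean expression), with Benjamini-Hochberg adjustment per comparison. Calls needed a fold change over 1.5 at an adjusted p under 0.01, and the code was tested on simulated data. Other steps used Python 3.11.15 with numpy 2.4.6, pandas 2.3.3 and matplotlib 3.10.9. The 11 comparisons are 3 cytokine responses per genotype, their departure from additivity in WT, genotype in control cultures and 3 differences between genotypes in a response. Alternatives changed the column reading, libraries, pseudocount, filter, scaling, groups in the fit, trend, threshold and block, and left out each replicate number of each genotype.

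A DHS belonged to a gene when it lay in the gene (GENCODE vM1, mm9) or within 10 kb, and DHSs were the same site when they shared at least 1 bp. Motifs were searched in 300 promoter bases and in the 151 bases around summits. The 7 genes are named whatever their values. Of the pathway list, called genes are named, at most the 4 with the largest change per comparison and direction, and for each tested gene the 3 genes most like it. The genes, lists and rules were chosen with earlier results of these data known. The authors' comparison columns (log fold changes, P and FDR) were not used. The result of 1 marker gene and the sums of its list are not reported here.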

Additional observations from a re-analysis of the deposited data

Results flagged for a closer look

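These differences between the genotypes in the same cytokine response were each tested as an interaction term in limma with Benjamini-Hochberg adjustment. The log2 response of *Il1rn* to TGF-β differed by -2.3623 (KO minus WT), and that to TGF-β + IL-4 by -1.6005. KO values of *Il1rn*, at 0.252 RPKM or less, lay near the 0.1 RPKM added before log2, so the sizes of these differences depend on it. The log2 response of *Il1r2* to TGF-β + IL-4 differed by -2.0365. Each of the 3 was lost with the columns as headed, and the difference of -1.6005 also when any WT replicate was left out.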

How the results depend on the processing

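Of the 12 calls for the 7 genes, 0 reversed in any alternative. Each was lost with the columns as headed (*Il1rn* between control cultures at an adjusted p of 0.0445), where the WT responses gave 0 calls (4 when read by position), the KO responses 0 (4) and the genotype differences 0 (4). In the other alternatives that test the gene, 6 calls were never lost: *Il1rn* in WT with TGF-β and with both cytokines, *Il1r2* in KO with IL-4 and with both, and the genotype differences of *Il1rn* for TGF-β and of *Il1r2* for both. A filter at a mean of 1 RPKM leaves *Il1r2* and *Il1rap* to test and gave 1 call for the WT responses, 2 for the KO responses and 1 for the genotype differences. The KO responses gave 2 calls on log2(RPKM + 1) and 2 with only the compared groups in the fit. The WT departure from additivity, with 0 calls, gave 1 on log2(RPKM + 1), 1 with only the compared groups and 1 at an adjusted p under 0.05. The cause was not tested. Calls gained in some alternative were *Il18r1* in WT with both cytokines (3 alternatives), *Il1r2* for additivity (5) and its genotype difference for IL-4 (1), *Il18r1* for the genotype differences of TGF-β (1) and of both cytokines (1), *Il18rap* for the latter (3), and, at an adjusted p under 0.05, *Il1rl1* in WT and *Il1rn* in KO with both. Leaving out a replicate number of either genotype gave 2 to 5 calls for the WT responses, 0 to 1 for the departure from additivity, 2 to 4 for the KO responses and 3 to 6 for the genotype differences. The 8 matched WT libraries give values for the WT comparisons only.

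What a shared replicate number marks is not stated, and not every pair of same-numbered libraries correlated above 0.1, so the libraries were not treated as paired. Correlations of their deviations ran from -0.06 to 0.45 in WT (median 0.05, 6 of 18 over 0.1) and from -0.30 to 0.38 in KO (median 0.14, 10 of 18), and the own number correlated best for 7 of 12 libraries in each genotype. With the replicate block, 9 of the 12 calls were made, the KO responses gave 2, and the calls of *Il1r2* in WT with both cytokines and of *Il18rap* in KO with IL-4 and with both were lost. The block lies within a genotype, so it leaves the comparison of control cultures as it was.

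Genome-wide, the headed columns gave 63 calls for genotype in control cultures (425 by position) and 0 in each other comparison, where position gave 826, 175 and 1321 for WT with TGF-β, IL-4 and both, 126 for additivity, 8, 415 and 432 for KO, and 538, 12 and 638 for the differences between genotypes. Against those counts, the matched libraries gave 115 for WT IL-4 and 31 for additivity. On log2(RPKM + 1), KO IL-4 gave 273 and control genotype 271. With only the compared groups, KO TGF-β gave 2, control genotype 267 and the IL-4 difference 5. At an adjusted p under 0.05, additivity gave 235, control genotype 644, the IL-4 difference 22 and the difference for both cytokines 958, and with the block the IL-4 difference gave 19. With a replicate left out, the counts over 1.5 times apart were 107 and 110 for WT IL-4, 833 for WT with both, 19 to 192 for additivity, 4 to 5 for KO TGF-β, 262 and 271 for control genotype, 2 to 5 for the IL-4 difference and 415 for that with both. Quantile normalization changed the WT calls with both cytokines from 991 higher and 330 lower (75% higher) to 759 and 542 (58.3%).

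Within 50 kb instead of 10 kb of the genes, DHSs numbered 38 (21) in WT control and 23 (13) in KO control, and the 27145 top DHSs of each list left 11 (18) in WT with both cytokines. Unknown DNase-seq depth and the few reads behind these genes limit what can be compared.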
